A study of Homo sapiens with 4 samples.

Results

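The HOX genes of cells that the labels name MG63 (an established osteosarcoma line, from a human bone tumour) were read in 4 libraries of polyadenylated RNA. The members were every row of the gene table whose symbol is HOX, a cluster letter from A to D and a number, with antisense names left out. This gave 39 genes of the 57905 identifiers in the table, 11 in the HOXA cluster, 10 in HOXB, 9 in HOXC and 9 in HOXD. A control siRNA (2 libraries, labelled siNC) or an siRNA against KLF11 (2 libraries, labelled siKLF11) was delivered, and RNA was taken at 48 hours. The labels name 1 line for all libraries and do not say whether replicates were separate cultures, so p-values cover the spread of these libraries alone, and that spread may be technical. Levels are in FPKM, fragments scaled by gene length and by library total, which can be compared between genes, and the read depth behind them is unknown. Pairs of values are given in replicate order.

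HOX genes encode homeodomain transcription factors that give cells a position along the body axis. They lie in clusters whose gene order matches the order of expression along the embryo, low numbers anterior and early, high numbers posterior and late. Genes of the same number in different clusters are paralogues. HOX proteins bind DNA together with partner homeodomain proteins of the PBX, MEIS and PKNOX families, and the clusters are opened and closed by Trithorax and Polycomb complexes and by retinoic acid. Pluripotent cells keep the clusters largely silent, while mesenchymal cells of the limb and trunk keep many of the genes on.

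The targeted transcription factor KLF11 measured 12.3 and 12.4 FPKM with control siRNA against 5.49 and 6.74 FPKM with KLF11 siRNA (log2 change -0.92, adjusted p = 0.00951, limma). Of 10 osteoblast lineage markers 5 had a mean of at least 1 FPKM, with sums of 918 and 878 FPKM with control siRNA against 1217 and 1083 FPKM with KLF11 siRNA. SPARC was most of these sums, at 657 and 637 against 716 and 772 FPKM, and did not pass (limma adjusted p = 0.147). The matrix genes SPARC, COL1A2 and COL1A1 and the phosphatase gene ALPL had means from 18.3 to 696 FPKM. Of the 5 tested, 1 rose and 1 fell. SPP1 rose from 2.31 and 2.76 to 247 and 99.1 FPKM (limma adjusted p = 0.00299). COL1A1 fell from 23.3 and 22.3 to 11.9 and 15.8 FPKM (limma adjusted p = 0.0234). BGLAP, with a mean below 1 FPKM, measured 1.39 and 0.77 FPKM with control siRNA against 0.18 and 0.38 FPKM with KLF11 siRNA. The osteoblast regulator RUNX2 measured 0.03 and 0.02 FPKM with control siRNA against 0.60 and 0.65 FPKM with KLF11 siRNA. It was called higher at a filter of a mean of 0.1 FPKM (log2 change 0.66, adjusted p = 0.0285, limma). Under alternatives that kept all 4 libraries its adjusted p ran from 0.0237 to 0.0698. SP7 was at most 0.04 FPKM and IBSP was listed at 0 in every library. All 11 pluripotency markers had a mean of at least 1 FPKM. Their sums were 1976 and 1937 FPKM with control siRNA against 3085 and 2599 FPKM with KLF11 siRNA. POU5F1 alone went from 186 and 177 to 1364 and 1068 FPKM. Of the 11, 6 were called higher and 3 lower by limma. Among all genes with a mean of at least 1 FPKM, 13.5% were called higher and 21.7% lower. Of 10 definitive endoderm markers 9 had a mean of at least 1 FPKM, of which 5 were called lower and 1 higher. The list summed to 5316 and 5297 FPKM with control siRNA against 1326 and 3143 FPKM with KLF11 siRNA. The KLF11 siRNA libraries thus lay far apart from each other on this sum. Most of it was CER1, at 4430 and 4406 against 958 and 2574 FPKM, which did not pass (limma adjusted p = 0.0543). Of 10 mesenchymal markers 6 had a mean of at least 1 FPKM, of which 4 were called higher and 0 lower. The list summed to 426 and 391 FPKM with control siRNA against 1143 and 1113 FPKM with KLF11 siRNA. Most of the rise in that sum was VIM, which went from 144 and 131 to 808 and 800 FPKM. FN1 and COL5A1 were lower with KLF11 siRNA and did not pass. FN1 measured 234 and 218 FPKM with control siRNA against 198 and 181 FPKM with KLF11 siRNA (limma adjusted p = 0.0854). COL5A1 measured 34.6 and 32.5 against 19.6 and 30.9 FPKM (limma adjusted p = 0.175). The near absence of SP7 and IBSP, and of RUNX2 in control libraries, beside high pluripotency and endoderm transcripts goes against the osteosarcoma label. Of the same osteoblast list, SPARC, COL1A2, COL1A1 and ALPL were expressed. What follows therefore describes the libraries labelled MG63, and the identity of the cells was not tested.

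HOX genes were near silent in both groups. The highest HOX value in any library was 3.32 FPKM, that of HOXD13 in control siRNA replicate 2, whereas the median over 19263 protein-coding genes ran from 4.15 to 5.07 FPKM. Only 3 of 39 HOX genes (7.69%) had a mean of at least 1 FPKM over the libraries, against 64.7% of protein-coding genes. In 33 of 39 the value stayed under 1 FPKM in every library. HOXA2, HOXA4, HOXC5, HOXC11 and HOXC12 were listed at 0 throughout, and 16 genes, those 5 included, stayed under 0.1 FPKM in every library. The table is rounded to 0.01 FPKM, so differences among these lowest genes cannot be read.

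**Figure D1:**
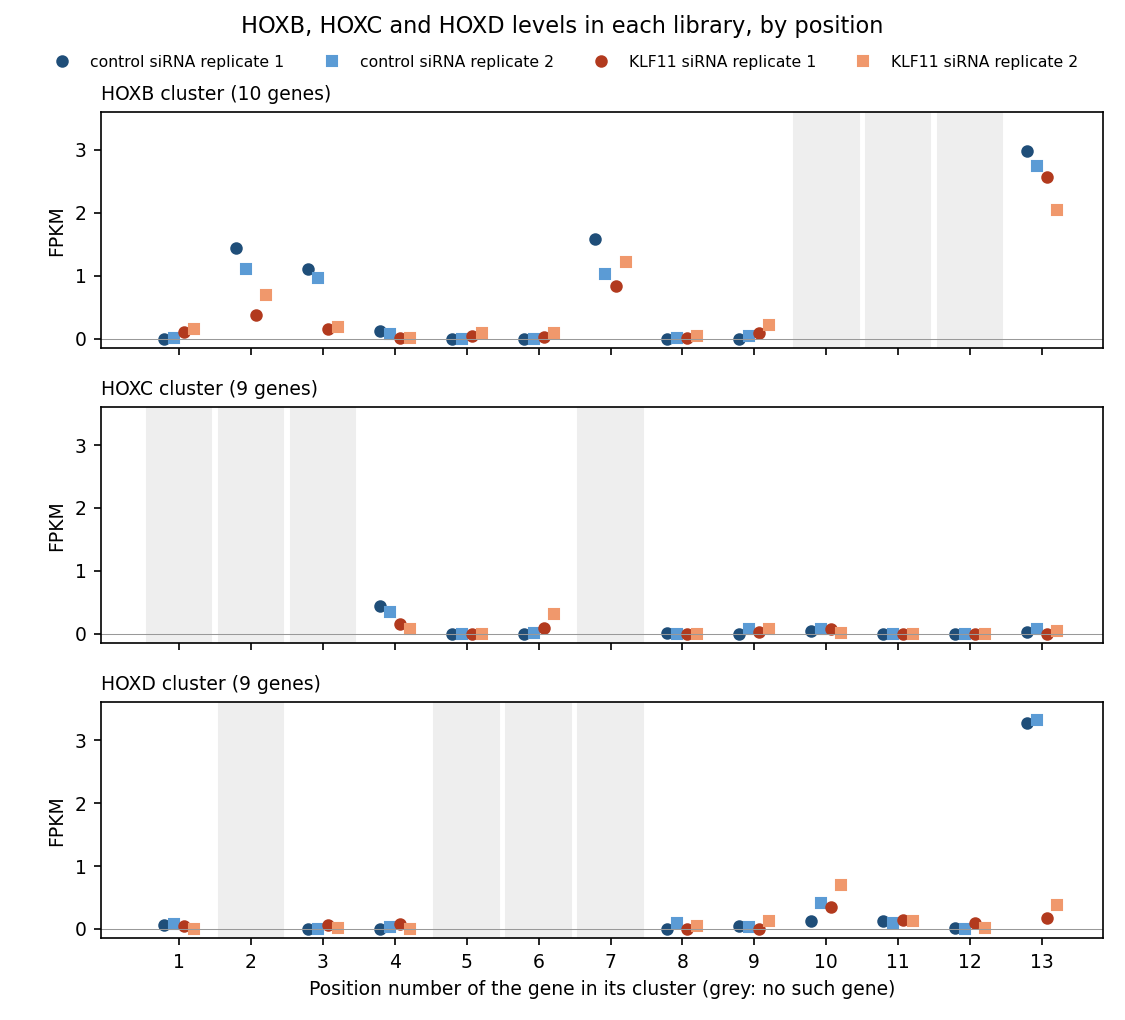
Level in FPKM (vertical axis) of each HOXB, HOXC and HOXD gene against its position number (horizontal axis), 1 panel per cluster, 1 point per library; grey marks numbers with no gene in that cluster. Points above 1 FPKM in these clusters occur at HOXB2, HOXB3, HOXB7, HOXB13 and HOXD13.

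The summed level of all 39 genes was 12.5 and 11.6 FPKM with control siRNA against 9.26 and 8.42 FPKM with KLF11 siRNA. Both KLF11 siRNA sums thus lay below both control sums. With HOXD13 (3.27 and 3.32 against 0.17 and 0.38 FPKM) taken out, the sums of the remaining genes overlap between the groups. The HOXD sum was 3.66 and 4.06 FPKM with control siRNA against 0.95 and 1.42 FPKM with KLF11 siRNA, and the HOXB sum was 7.23 and 5.99 against 4.26 and 4.79 FPKM. The HOXA sum went the other way, being 1.11 and 0.98 against 3.70 and 1.67 FPKM. HOXC genes summed to at most 0.60 FPKM in any library. HOXD13 made up 89.3% and 81.8% of the HOXD sum in the control libraries.

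With the filter used for all genes, a mean of at least 1 FPKM, 3 HOX genes were tested among 15320, namely HOXD13, HOXB13 and HOXB7. HOXD13 fell, 2 did not pass and 0 rose (limma on log2(FPKM + 1), adjusted over all tested genes). At an unadjusted p under 0.05 the counts were 1 lower and 0 higher, and limma was the only tool run. Of all tested genes 21.7% were called lower and 13.5% higher (3329 and 2071 genes, which became 2605 and 2757 with median-of-ratios scaling), and 3 genes are too few to set against those shares. The median log2 change of the 3 was -0.23, beside -0.11 over all tested genes. A filter of a mean of 0.1 FPKM let 14 HOX genes be tested among 24932, and the other 25 lie below it. Here 2 fell, HOXD13 and HOXB3, 1 rose and 11 did not pass, where 11.3% of all tested genes were called lower and 7.00% higher. The 14 had a median log2 change of -0.20, beside -0.07 over all genes tested at that filter. A low gene enters through the group in which it is high, so these counts describe the genes that entered and not the 39.

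HOXD13, the most posterior gene of its cluster and known for its part in digit formation, was the member with the smallest adjusted p. It measured 3.27 and 3.32 FPKM with control siRNA against 0.17 and 0.38 FPKM with KLF11 siRNA. The groups lay wide apart, and the 2 control libraries, as the highest HOX values of the data, differed by less than the 2 KLF11 siRNA libraries did. The control mean was 3.29 ± 0.0354 FPKM and the KLF11 siRNA mean 0.275 ± 0.149 FPKM (SD, n = 2 each), a level 12.0-fold lower. The log2 change was -1.76 (SE 0.20, adjusted p = 0.00536, limma), an understatement for a gene of this level since 1 FPKM is added before taking logs. The call was lost on leaving out control siRNA replicate 1 (log2 change -1.76, adjusted p = 0.0854) or replicate 2 (log2 change -1.75, adjusted p = 0.0815). In bulk RNA such as this, fewer cells expressing a gene and less RNA per cell cannot be told apart.

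Of the HOXD genes, HOXD13 alone reached 1 FPKM in any library, and the 2 others that could be tested did not pass. HOXD12, its nearest neighbour in the cluster, measured at most 0.09 FPKM in any library. HOXD11 measured 0.13 and 0.09 FPKM with control siRNA against 0.15 and 0.13 FPKM with KLF11 siRNA (adjusted p = 0.831 at the 0.1 FPKM filter), and HOXD10, with 0.13 and 0.41 against 0.35 and 0.70 FPKM, overlapped between the groups (adjusted p = 0.393). HOXD9, HOXD8, HOXD4, HOXD3 and HOXD1 stayed at or under 0.12 FPKM. In GENCODE release 29 no other gene overlaps HOXD13 on either strand. The annotation used for counting is not given in the sources used here, and reads shared with similar sequences elsewhere were not looked at. KLF11 belongs to a family known to bind GC-rich boxes, and the 250 bases before the RefSeq start sites of HOXD13, which fell, and HOXD12, which was near 0 in both groups, are shown to set the starts of the neighbours side by side. Capitals mark the GC box GGGCGG or its reverse CCGCCC; both are plus strand, GRCh38.p14, at chr2:176092471-176092720 for HOXD13 and chr2:176099545-176099794 for HOXD12.
HOXD13: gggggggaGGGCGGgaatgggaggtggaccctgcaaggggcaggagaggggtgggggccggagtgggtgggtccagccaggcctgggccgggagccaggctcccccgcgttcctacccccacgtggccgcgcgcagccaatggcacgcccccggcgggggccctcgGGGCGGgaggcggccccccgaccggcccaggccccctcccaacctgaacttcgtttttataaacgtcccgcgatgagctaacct
HOXD12: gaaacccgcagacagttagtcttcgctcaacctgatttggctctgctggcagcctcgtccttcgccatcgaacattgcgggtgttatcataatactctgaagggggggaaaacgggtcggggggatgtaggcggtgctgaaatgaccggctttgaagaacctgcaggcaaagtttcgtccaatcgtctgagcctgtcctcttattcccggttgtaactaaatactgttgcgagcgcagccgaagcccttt
The HOXD13 stretch is 74.0% G and C and holds 2 GC boxes and 2 CACCC boxes (CACCC or GGGTG, also bound by the family), and that of HOXD12 is 53.2% G and C and holds 0 GC boxes and 1 CACCC box. The GC box was found on either strand in 42.6% of 34943 such windows of all genes and in 13 of 27 windows of the 20 HOX genes that the table covers. The CACCC box was found on either strand in 54.7% of all windows and 11 of the 27. A match is only a match of letters, and binding was not measured.

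The one gene above 2 FPKM in every library was HOXB13, the posterior end of the HOXB cluster, known for its expression in prostate and hindgut. It measured 2.98 and 2.74 FPKM with control siRNA against 2.57 and 2.05 FPKM with KLF11 siRNA. The KLF11 siRNA values lay below the control values by a small margin, and the difference did not pass (log2 change -0.23, SE 0.18, adjusted p = 0.362, limma). HOXB13 was second to HOXD13 in both control libraries and was the highest HOX gene in both KLF11 siRNA libraries. Of the other paralogues of number 13, HOXC13 measured at most 0.08 FPKM, and HOXA13, which acts with HOXD13 in the limb bud, measured 0.02 and 0.01 FPKM with control siRNA against 0.61 and 0.20 FPKM with KLF11 siRNA. HOXA13 did not pass (log2 change 0.45, adjusted p = 0.146 at the 0.1 FPKM filter), although both KLF11 siRNA libraries were above both controls. HOXB7, a central gene, measured 1.58 and 1.03 FPKM with control siRNA against 0.84 and 1.22 FPKM with KLF11 siRNA. Its groups overlapped (log2 change -0.18, adjusted p = 0.580), and its sign turned with quantile normalization (0.020). In GENCODE release 29 HOXB7 overlaps HOXB-AS4 on the opposite strand and HOXB8 and HOXB9 on its own. Reads of these genes cannot be told apart with certainty.

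**Figure D2:**
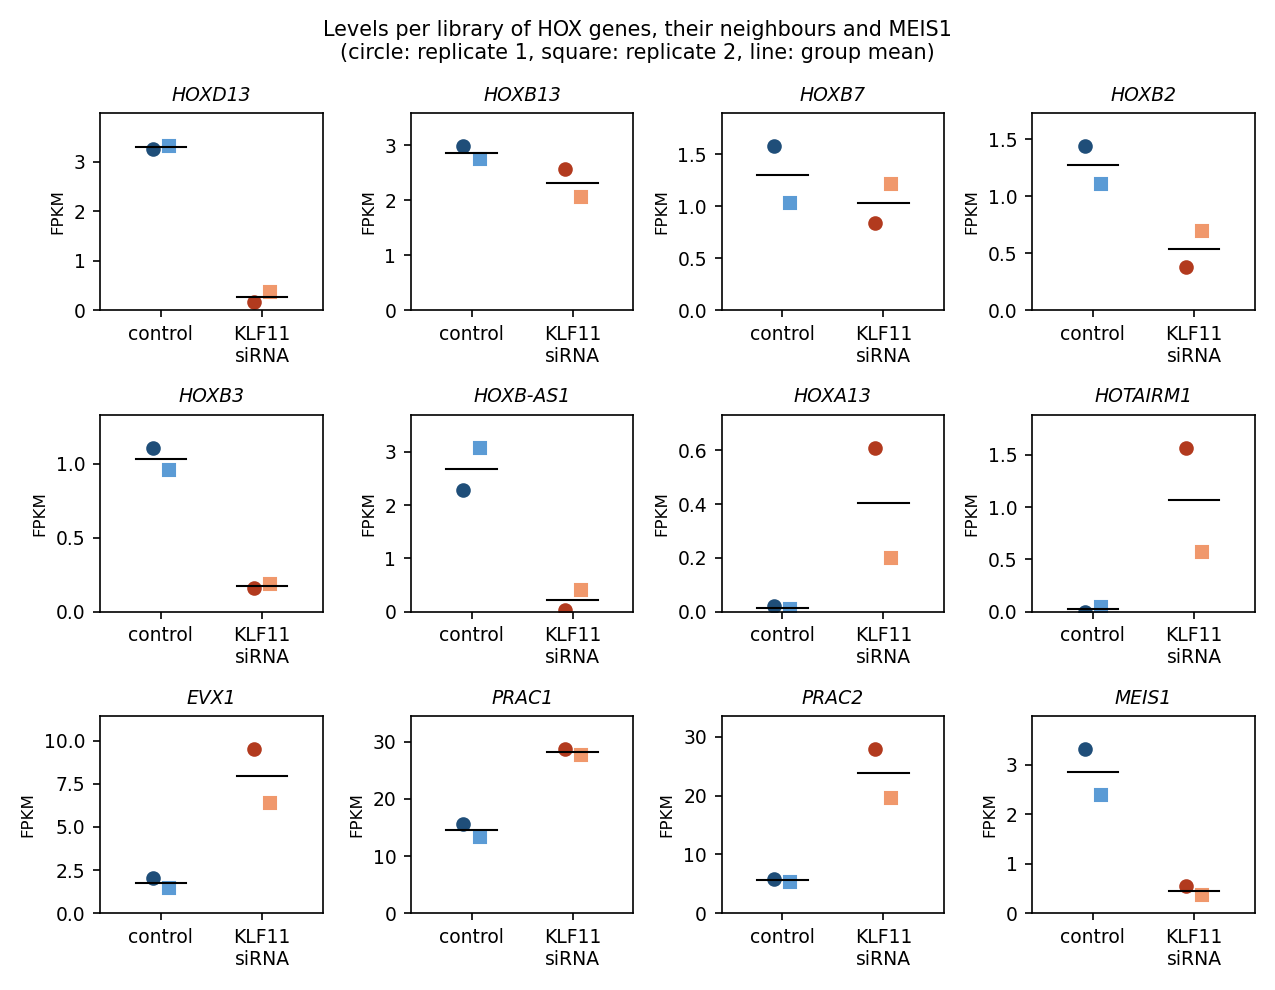
Level in FPKM (vertical axes, each from 0) of 12 genes in control siRNA and KLF11 siRNA libraries; circles are replicate 1, squares replicate 2 and lines the group means of 2 libraries. HOXD13, HOXB13, HOXB2, HOXB3, HOXB-AS1 and MEIS1 are lower and HOXA13, HOTAIRM1, EVX1, PRAC1 and PRAC2 higher in both KLF11 siRNA libraries. HOXB7 overlaps between the groups.

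The anterior HOXB genes HOXB2 and HOXB3, which pattern the hindbrain, were lower with KLF11 siRNA, and HOXB3 passed the test. HOXB3 measured 1.11 and 0.96 FPKM with control siRNA against 0.16 and 0.19 FPKM with KLF11 siRNA, a 5.91-fold lower mean (log2 change -0.79, SE 0.14, adjusted p = 0.0276 at the 0.1 FPKM filter, limma). HOXB2 measured 1.44 and 1.11 FPKM with control siRNA against 0.38 and 0.70 FPKM with KLF11 siRNA. Its groups did not overlap, but the difference did not pass (log2 change -0.57, SE 0.19, adjusted p = 0.109). The noncoding HOXB-AS1, transcribed on the opposite strand between and across both genes, fell from 2.29 and 3.08 FPKM to 0.04 and 0.41 FPKM (log2 change -1.60, adjusted p = 0.0107). GENCODE release 29 has HOXB-AS1 overlapping HOXB2 and HOXB3, and since the strand setting of the counting is not given in the sources used here, reads of the 3 genes cannot be told apart with certainty. HOXB3 transcripts also span HOXB4, HOXB5 and HOXB6 on its own strand. With no filter on low values the HOXB-AS1 call was lost (adjusted p = 0.0517). The HOXB3 call was lost when any 1 library was left out (adjusted p from 0.087 to 0.230) and with the replicate number as a block (adjusted p = 0.0664), with the log2 change between -0.84 and -0.74.

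Other HOXB genes were at the limit of the table. HOXB4 measured 0.12 and 0.07 FPKM in control and 0.01 FPKM in both KLF11 siRNA libraries. HOXB1, HOXB5, HOXB6 and HOXB9 measured at most 0.04 FPKM in control and from 0.03 to 0.22 FPKM in KLF11 siRNA libraries. HOXB8 measured at most 0.04 FPKM. Of the 4 HOXB genes tested at the 0.1 FPKM filter (HOXB2, HOXB3, HOXB7 and HOXB13) HOXB3 passed.

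HOTAIRM1, a noncoding RNA of the HOXA cluster, was named after its values had been seen. It measured 0 and 0.05 FPKM with control siRNA against 1.57 and 0.57 FPKM with KLF11 siRNA (log2 change 0.97, adjusted p = 0.0682) and did not pass, although it did with a pseudocount of 0.1 FPKM (adjusted p = 0.0383). HOXA13 and HOTAIRM1 were each higher in KLF11 siRNA replicate 1 than in replicate 2. The summed endoderm markers, most of which was CER1, were 1326 FPKM in KLF11 siRNA replicate 1 and 3143 FPKM in replicate 2. The part of that difference in these results was not tested.

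Other HOXA and HOXC genes were low. HOXA7 measured 0.41 and 0.20 FPKM with control siRNA against 0.09 and 0.08 FPKM with KLF11 siRNA (adjusted p = 0.245). HOXA10, a posterior gene, measured 0.48 and 0.46 against 0.33 and 0.16 FPKM (adjusted p = 0.291), and HOXA11 overlapped between the groups. HOXA3, HOXA5, HOXA6 and HOXA9 measured at most 0.17 FPKM. In HOXC, HOXC4 measured 0.45 and 0.35 FPKM with control siRNA against 0.16 and 0.07 FPKM with KLF11 siRNA (adjusted p = 0.143), while HOXC6 measured 0 and 0.02 against 0.09 and 0.32 FPKM (adjusted p = 0.277). HOXC4, HOXC5 and HOXC6 share transcript stretches in the annotation, so the split between them is uncertain. HOXC8, HOXC9, HOXC10 and HOXC13 measured at most 0.08 FPKM. Of the 14 genes with a mean of at least 0.1 FPKM, 7 had both KLF11 siRNA values below both control values, 3 had both above and 4 overlapped, where 37.9% and 24.6% of all genes at that filter were apart in these directions.

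By position, the central genes 4 to 8 held the least signal per gene. The 15 central genes summed to 2.57 and 1.85 FPKM with control siRNA against 1.38 and 2.09 FPKM with KLF11 siRNA, with overlapping groups. The 16 posterior genes, 9 to 13, summed to 7.31 and 7.59 FPKM with control siRNA against 4.83 and 4.23 FPKM with KLF11 siRNA. With HOXD13 taken out, the posterior sums overlap between the groups too. At the anterior end HOXB1 measured at most 0.16 FPKM and HOXD1 at most 0.08 FPKM.

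The noncoding RNAs of the clusters were nearly all near 0. Of 22 in the table, 10 were listed at 0 in every library and 1, HOXB-AS1, had a mean of at least 1 FPKM. HOTAIR, which lies in HOXC, and HOTTIP, at the end of HOXA, measured at most 0.02 FPKM. HAGLR, of the HOXD cluster, measured 0.25 and 0.38 FPKM in control and 0.04 FPKM in each with KLF11 siRNA (log2 change -0.34, adjusted p = 0.12 at the 0.1 FPKM filter). HOXB-AS4, which overlaps HOXB7 on the opposite strand, had no signal in the control libraries and reached 0.45 and 0.23 FPKM with KLF11 siRNA (log2 change 0.42, adjusted p = 0.0966). In all, 25 of 39 HOX genes overlap a gene on the opposite strand in GENCODE release 29.

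Of 15 genes that flank the clusters, 12 had a mean of at least 1 FPKM, and EVX1, PRAC1 and PRAC2 rose while HIBADH fell. Of 12 flanking genes tested 3 rose and 1 fell, where 13.5% and 21.7% of all tested genes did. EVX1, the even-skipped homeobox gene beyond HOXA13, rose 4.53-fold, the control values being 2.06 and 1.45 FPKM and the KLF11 siRNA values 9.52 and 6.39 FPKM (limma adjusted p = 0.00796), while HOXA13 next to it stayed at or under 0.61 FPKM. PRAC1 and PRAC2, which lie beside HOXB13 and are known from prostate, rectum and distal colon, rose too: PRAC1 from 15.6 and 13.4 to 28.8 and 27.6 FPKM (adjusted p = 0.0063) and PRAC2 from 5.82 and 5.31 to 27.9 and 19.6 FPKM (adjusted p = 0.00442). HOXB13, next to them, did not pass. HIBADH, a mitochondrial enzyme gene beyond EVX1, fell 1.51-fold, the control values being 27.8 and 29 FPKM and the KLF11 siRNA values 18.4 and 19.1 FPKM (adjusted p = 0.0113). On the HOXD side, EVX2, next to HOXD13, measured at most 0.05 FPKM, and LNPK and MTX2, at the ends of that cluster, did not pass (log2 changes -0.42 and -0.30, adjusted p = 0.0597 and 0.0844). MTX2 passed without KLF11 siRNA replicate 1 (adjusted p = 0.0440), and LNPK passed with TPM scaling (adjusted p = 0.0479) and without a variance trend (0.0444). SKAP2, beyond the anterior end of HOXA, measured 2.50 and 3.24 against 6.21 and 4.04 FPKM and did not pass (adjusted p = 0.0825), and it passed without KLF11 siRNA replicate 2 (adjusted p = 0.0278). CBX5, SNX10, CALCOCO1, SMUG1 and ATP5MC3 did not pass, with log2 changes from -0.28 to -0.08, and that of ATP5MC3 turned with median-of-ratios scaling (0.051).

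The partners of HOX proteins ranged from a mean of 0.863 FPKM (MEIS2) to 98.7 FPKM (PBX2), and MEIS1, PBX2 and others were lower with KLF11 siRNA. Of 9 tested, 6 fell and 1 rose, where 21.7% and 13.5% of all tested genes did. At the 0.1 FPKM filter 2 of 10 fell and 1 rose, where 11.3% and 7.00% did. The median log2 change was -0.47, beside -0.11 over all tested genes. MEIS1, a cofactor of posterior HOX proteins, fell 6.26-fold, from 3.32 and 2.38 to 0.54 and 0.37 FPKM (limma adjusted p = 0.0106), and PBX2 fell from 133 and 126 to 57.9 and 77.5 FPKM (adjusted p = 0.0109). MEIS3 rose from 75.4 and 68.3 to 104 and 134 FPKM (adjusted p = 0.0181). These 3 calls were lost with no filter on low values (adjusted p from 0.0523 to 0.0739). PKNOX1, PKNOX2 and PBXIP1, which encodes a protein that binds PBX proteins, fell by smaller amounts, with log2 changes from -0.69 to -0.42 and adjusted p-values from 0.0381 to 0.0464. These 3 calls were also lost with quantile normalization (adjusted p from 0.0685 to 0.0925), with the replicate block (0.0660 to 0.0878) and at the 0.1 FPKM filter (0.0563 to 0.0730). Median-of-ratios scaling, which ended them too (adjusted p from 0.056 to 0.0826), moves the median of all genes from -0.11 to just above 0. PBX3 and PBX4 did not pass. PBX3 measured 20.8 and 19.4 against 20.0 and 18.4 FPKM (log2 change -0.061), with its sign turned by median-of-ratios scaling (0.064) and quantile normalization (0.058), and PBX4 measured 3.03 and 1.47 against 0.24 and 0.86 FPKM (adjusted p = 0.0641, or 0.0465 on leaving out KLF11 siRNA replicate 2).

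**Figure D3:**
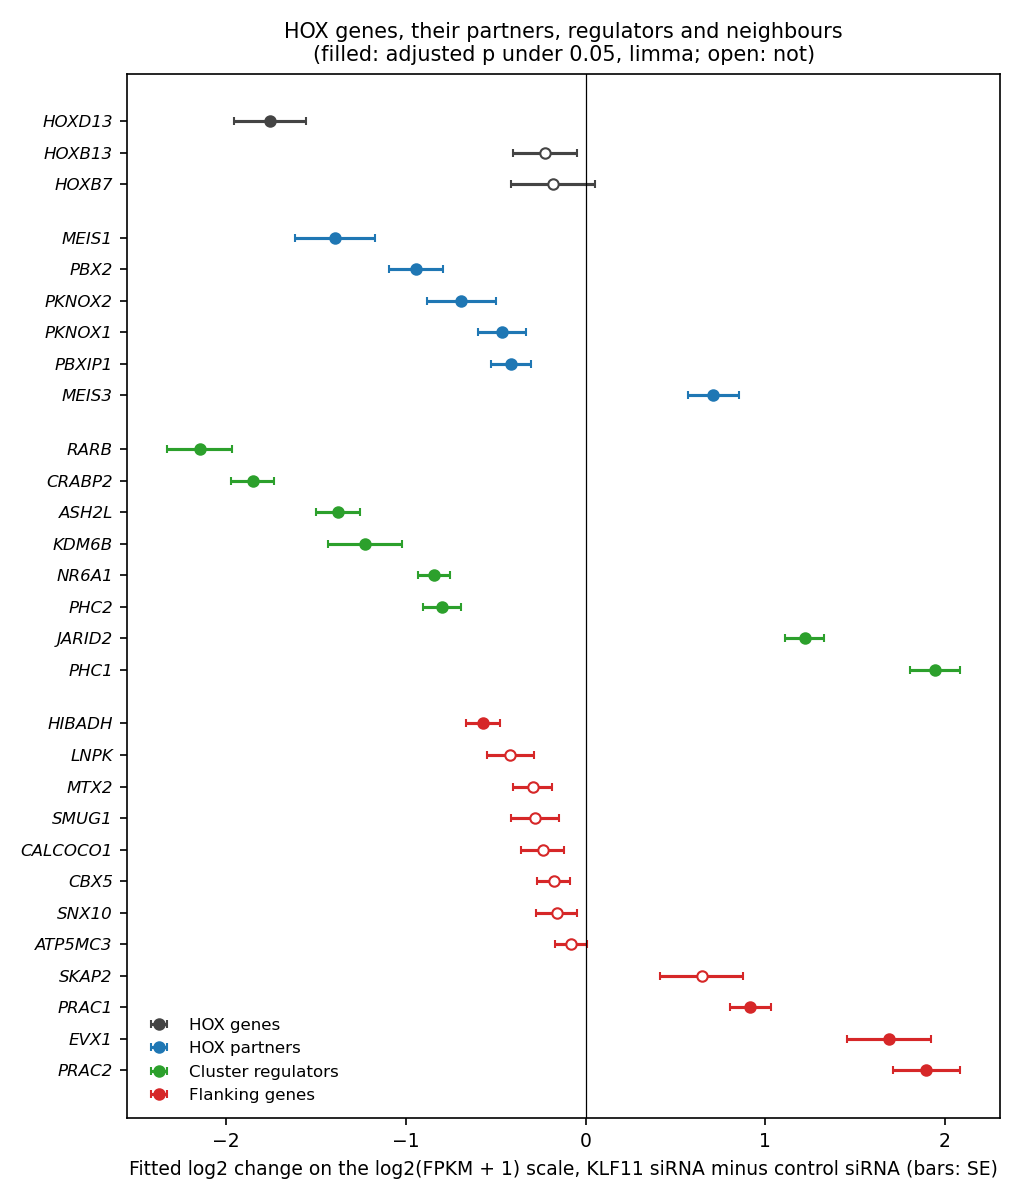
Fitted log2 change on the log2(FPKM + 1) scale, KLF11 siRNA minus control siRNA (horizontal axis, bars are SE), of the 3 HOX genes tested at the 1 FPKM filter, of 6 HOX partners that passed, of the 8 cluster regulators with the smallest p and of the 12 flanking genes tested. Filled points passed an adjusted p of 0.05 in limma; HOXD13, MEIS1, RARB and CRABP2 lie on the lower side and PHC1, JARID2, PRAC2 and EVX1 on the higher side.

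Of the genes that set the state of the clusters, 32 of 37 were tested, of which 11 fell and 3 rose, where 21.7% and 13.5% of all tested genes did. The largest fall among them was in the retinoic acid axis: RARB, a retinoic acid receptor that is itself induced by retinoic acid, fell by 2.15 on the log2 scale, from 4.81 and 4.91 to 0.40 and 0.25 FPKM (limma adjusted p = 0.00335), and CRABP2, which carries retinoic acid into the nucleus, from 263 and 240 to 62.7 and 75.6 FPKM (adjusted p = 0.00238). RARG measured 11.5 and 11.1 against 11.01 and 11.3 FPKM, and ALDH1A2, which makes retinoic acid in the embryo, at most 0.43 FPKM. NR6A1, a nuclear receptor of the embryonic trunk, fell 1.81-fold (adjusted p = 0.00476). Among Polycomb genes PHC1 rose from 33.4 and 28.4 to 134 and 110 FPKM (adjusted p = 0.00249) and JARID2 from 20.8 and 19.4 to 51.7 and 44.6 FPKM (adjusted p = 0.00366), while PHC2 fell 1.79-fold (adjusted p = 0.00679). The core subunits EZH2, EED and SUZ12 did not pass, with log2 changes of 0.29, -0.19 and -0.020. On the Trithorax side ASH2L fell from 70.4 and 74.0 to 24.5 and 30.1 FPKM (adjusted p = 0.00357), and KDM6B, a demethylase of the Polycomb mark, from 19.6 and 17.3 to 5.86 and 9.01 FPKM (adjusted p = 0.0121, and 0.0585 with no filter). KMT2A, a methyltransferase that maintains HOX expression, was the third gene to rise, from 8.53 and 7.43 to 11.1 and 13.3 FPKM (adjusted p = 0.0361). That call was lost without KLF11 siRNA replicate 2 (adjusted p = 0.0778), with the replicate block (0.0689), with a filter of 0.1 FPKM (0.0600) and with no filter (0.0958). The homeobox genes CDX1, CDX2 and CDX4, which act upstream of posterior HOX genes, measured at most 0.35 FPKM. With either control library left out, 0 of all tested genes passed in either direction.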

How the data were processed

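Polyadenylated RNA was sequenced in 4 libraries, 2 per group, grouped by sample title and matched to columns by name (0 columns unused). The authors deposited FPKM values with 2 decimals; per the submitters' processing notes they used Trim Galore 0.5.0, RSEM 1.3.1 and hg19 (GRCh37). Aligner, annotation release and strand setting: not given in the sources used here. Depth cannot be read from FPKM, and RSEM splits reads shared between overlapping transcripts.

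For genes with a mean of at least 1 FPKM, log2(FPKM + 1) was fitted by limma 3.58.1 (R 4.3.3), with the tests moderated (mean-variance trend, 2 groups, two-sided, Benjamini-Hochberg over all tested genes, threshold 0.05), checked on simulated data. That check read the recovery of changes only in genes with higher means than any HOX gene. It therefore does not cover recovery at the level of the HOX genes. Changes were planted in far fewer genes than were called in these data, so the check does not vouch for the calls. For HOX genes below that filter, a fit with a filter of 0.1 FPKM, one of the alternatives, is also reported, a choice made after seeing that 3 members passed the first filter. Members and lists were chosen with earlier results of these data known. Named were HOX genes and neighbours with a mean of at least 1 FPKM (HOX: in either group), cofactors past the threshold and the 8 such regulators with the smallest p; a HOX gene and a cofactor that meet this are not reported here, though counts and sums include them; others named were chosen after their values were seen. Overlaps come from GENCODE release 29, and promoter sequences from RefSeq (GRCh38.p14), of which 20 of 39 members had one. Alternatives were pseudocounts of 0.1 and 5, other filters and scalings, no variance trend, a replicate block, each library left out and a threshold of 0.1. Figures were drawn with matplotlib 3.10.9.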

Additional observations from a re-analysis of the deposited data

How the results depend on the processing

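At the 1 FPKM filter, the count of HOX genes called higher was 0 and called lower 1 under every alternative that kept the 4 libraries and that filter, and with no filter; with a filter of 0.1 FPKM it was 1 and 2. With each library left out in turn, the counts ran from 0 to 0 higher and from 0 to 1 lower. At the 0.1 FPKM filter they were 0 higher with a pseudocount of 5 FPKM, 0 higher and 1 lower with the replicate block, and 0 to 0 in both directions with a library left out. Over all genes, 2071 higher and 3329 lower became 887 and 1251 with no filter, ran from 0 to 2291 and from 0 to 3813 with a library left out, and were 1707 and 2644 with the replicate block, where replicates share only a number (correlation of same-numbered deviations -0.07 across 15320 genes). A left-out library leaves 1 in its group, which is assumed to vary like the other group. The median HOX change was -0.23 over the 3 genes tested at the 1 FPKM filter and 0.027 with no filter. Without a filter every HOX gene with any signal enters, so these medians cover different genes. The filter leaves the log2 change of each gene as it was. Signs turned for HOXB7 with quantile normalization (0.020) and for ATP5MC3 (0.051) and PBX3 (0.064) with median-of-ratios scaling. PBX3 also turned with quantile normalization (0.058). The cause of these turns was not tested. Of 604 values of 44 genes under alternatives, 469 kept their direction and side of the threshold, 120 lost the call, 11 gained it and 4 turned. That tally counts genes called in neither fit as kept, and the threshold of 0.1 can only add calls. It therefore does not measure how robust the calls are. The unknown depth and the rounding to 0.01 FPKM limit what can be read of HOX genes under 0.1 FPKM.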

Other observations

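Other homeobox genes related to the HOX clusters were also mostly near 0, and the few that were expressed went both ways. Of 21 genes of the CDX, GSX, PDX, GBX, EN, DLX, MNX, EVX and MEOX kinds, 3 reached a mean of 1 FPKM. Besides EVX1, GBX2, which marks the anterior hindbrain, rose from 0.79 and 0.68 to 5.97 and 4.29 FPKM (adjusted p = 0.00545, limma), and MNX1, a gene of motor neurons and pancreas, fell from 2.30 and 2.49 to 0.16 and 0.52 FPKM (adjusted p = 0.0122, and 0.0536 with no filter). EN2, a midbrain and hindbrain gene, measured 0.09 and 0.12 FPKM with control siRNA against 0.63 and 0.57 FPKM with KLF11 siRNA (log2 change 0.53, adjusted p = 0.0481 at the 0.1 FPKM filter), a call lost with TPM scaling (adjusted p = 0.0508), with a pseudocount of 0.1 FPKM (0.0546), with the replicate block (0.106) and when any 1 library was left out (0.078 to 0.230). DLX4 measured 0.64 and 0.94 FPKM with control siRNA against 0.16 and 0.23 FPKM with KLF11 siRNA and did not pass (adjusted p = 0.0661). PDX1, GSX1 and GSX2 were listed at 0 in every library.

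CYP26A1, the enzyme that breaks down retinoic acid, was far more abundant than any HOX gene, at 371 and 398 FPKM with control siRNA against 96.1 and 214 FPKM with KLF11 siRNA (log2 change -1.42, adjusted p = 0.0349, limma). The KLF11 siRNA libraries lay far apart from each other for it, and the call was lost without a variance trend (adjusted p = 0.0566), with a filter of 0.1 FPKM (0.0654) and with no filter (0.128).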
